A study of Mus musculus with 29 samples.

Results

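The 31 genes described here make cholesterol, sense it, move it through the cell, or turn it over and carry it in lipoproteins. They were matched by gene symbol, all 31 were found among the 31002 genes measured, and all 31 were among the 15554 genes tested. The set holds 18 enzymes of synthesis, from Acat2 at the entry to the mevalonate pathway to Dhcr7, which makes cholesterol from 7-dehydrocholesterol. It also holds Srebf2, Insig1 and Scap of sterol sensing, Stard4, Npc1, Npc2 and Soat1 of movement and esterification inside the cell, and Cyp46a1, Abca1, Abcg1, Nr1h2, Mylip and Apoe of turnover, export and lipoproteins.

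RNA sequencing measured the hippocampus of 29 mice, with 1 library per mouse. WT mice, labelled C57BL/6N, were compared with hAβ-KI mice, labelled C57BL/6NJ, in which both copies of App carry a humanized Aβ sequence inside an exon flanked by loxP sites. The groups were young WT (2 months, n = 7), young hAβ-KI (2 months, n = 8), old WT (22 months, n = 8) and old hAβ-KI (22 months, n = 6), and each held both sexes (11 females and 18 males in all). The knock-in was made in C57BL/6N embryonic stem cells placed in C57BL/6J blastocysts, and its carriers were bred to both substrains, whereas the WT mice were of a C57BL/6N stock, so genotype and substrain background cannot be told apart. The index numbers in the library names ran from 1 to 7 for young WT, 9 to 16 for old WT, 17 to 24 for young hAβ-KI and 25 to 31 for old hAβ-KI mice, and an effect of library order cannot be told apart from the groups.

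The brain makes nearly all of its own cholesterol, because lipoproteins of the blood do not cross the blood-brain barrier. When sterols in the endoplasmic reticulum fall, SCAP escorts the transcription factor SREBP2, the product of Srebf2, to the Golgi, where it is cut, and the released part enters the nucleus and raises transcription of most synthesis enzymes together. INSIG1 holds SCAP back when sterols are high. Adult neurons remove cholesterol mainly as 24-hydroxycholesterol, made by CYP46A1, and astrocytes and microglia release it on particles that carry apolipoprotein E.

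Levels are given in TPM, a relative scale corrected for transcript length on which genes can be set beside each other. A value after ± is the SD over the mice of a group, whose n is given above. The sum of TPM per mouse was 717535 to 816940, because the table holds only protein-coding and long non-coding genes. The defining markers of neurons, hippocampus, oligodendrocytes, astrocytes and microglia were present in every group, and none of the listed genes was at 0 in all mice. Markers of choroid plexus, a tissue that borders the hippocampus, ranged from 40.8 to 18035 summed TPM, and the groups overlapped over most of this range. The highest sums were 15247 (young WT), 15750 (young hAβ-KI), 18035 (old WT) and 11499 TPM (old hAβ-KI). Of the 7 choroid plexus genes, 0 passed in any comparison, but their intervals were wide. For genotype at 22 months, 6 were higher in hAβ-KI mice and 1 lower, with 95% bounds from -2.52 to 4.64 on the log2 scale. Balance of this tissue between the groups was therefore not shown. In bulk tissue, fewer cells of a type and less RNA per cell cannot be told apart. The methods give only an approximate depth common to all samples, and without read counts the depth of each mouse is unknown. The errors given are those between mice.

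Stretches before start sites of Dhcr7 and of Hmgcs1 are shown because Dhcr7 is set against the rest of the pathway. Hmgcs1 encodes the cytosolic HMG-CoA synthase and is a classical SREBP2 target. RefSeq gives 25 of the 31 members a promoter window of 250 bases before and 50 bases after a start site, on GRCm38.p6. Dhcr7 has 3 such windows spread over 7047 bases. The first and last are given, then that of Hmgcs1, each without the 50 bases after its start site. All are on the plus strand and 5′ to 3′. Dhcr7 as annotated begins at 143823145, so the end of its first stretch and all of its last stretch lie inside the gene. Capitals mark TCACNCCAC (the sterol regulatory element), CCAAT (bound by NF-Y) or GGGCGG (bound by Sp1) on either strand, and no match overlaps another.
Dhcr7, first start, chr7:143822917-143823166: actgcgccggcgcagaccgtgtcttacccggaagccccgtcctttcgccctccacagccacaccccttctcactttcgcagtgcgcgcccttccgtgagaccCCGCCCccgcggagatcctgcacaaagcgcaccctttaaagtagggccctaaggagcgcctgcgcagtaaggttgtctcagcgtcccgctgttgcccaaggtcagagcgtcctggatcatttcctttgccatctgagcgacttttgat
Dhcr7, last start, chr7:143829964-143830213: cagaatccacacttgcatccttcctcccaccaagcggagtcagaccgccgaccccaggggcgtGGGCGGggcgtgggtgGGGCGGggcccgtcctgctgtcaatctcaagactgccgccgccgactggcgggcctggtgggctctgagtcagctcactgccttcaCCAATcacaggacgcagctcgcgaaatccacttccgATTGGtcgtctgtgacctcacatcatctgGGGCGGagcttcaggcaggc
Hmgcs1, chr13:119690101-119690350: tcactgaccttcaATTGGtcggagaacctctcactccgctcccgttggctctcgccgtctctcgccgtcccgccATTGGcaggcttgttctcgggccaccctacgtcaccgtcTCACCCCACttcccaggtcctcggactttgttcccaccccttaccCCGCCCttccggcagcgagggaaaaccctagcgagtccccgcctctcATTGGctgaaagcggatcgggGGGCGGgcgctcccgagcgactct

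The last Dhcr7 stretch held 2 CCAAT and 3 GGGCGG matches, the first held 1 GGGCGG match, and neither held TCACNCCAC. The Hmgcs1 stretch held 1 TCACNCCAC, 3 CCAAT and 2 GGGCGG matches. Over the full windows, TCACNCCAC was found in 1 of the 25 members with a window, Hmgcs1, and in 1.44% of all 27025 genes with a window. CCAAT was found in 20 of the 25 members against 41.1% of all genes, and GGGCGG in 22 of the 25 against 38.2%. These matches describe letters in a window and say nothing of binding. The first Dhcr7 stretch shares 186 bases with the stretch upstream of Nadsyn1, an NAD synthetase gene that is transcribed in the opposite direction.

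The question of the first comparison was whether any member differed between hAβ-KI and WT mice. The members were chosen with earlier results of these data known, and the authors had already listed Dhcr7 as altered. The Dhcr7 call is therefore not an independent find. Dhcr7 was higher in hAβ-KI mice at both ages, by more than the spread between mice, and no other member passed the threshold at either age. Dhcr7 (ENSMUSG00000058454) lies on the plus strand of chromosome 7 of GRCm38, from 143823145 to 143848410. At 2 months of age its TPM ran from 10.7 to 14.5 in WT mice, with a median of 11.7, and from 23.2 to 38.9 in hAβ-KI mice, with a median of 31.8. At 22 months of age it ran from 9.28 to 13.9 in WT mice, with a median of 11.2, and from 20.3 to 30.99 in hAβ-KI mice, with a median of 29.2. The 2 genotypes did not overlap, since the lowest hAβ-KI mouse, at 20.3 TPM, was above the highest WT mouse, at 14.5 TPM.

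**Figure D1:**
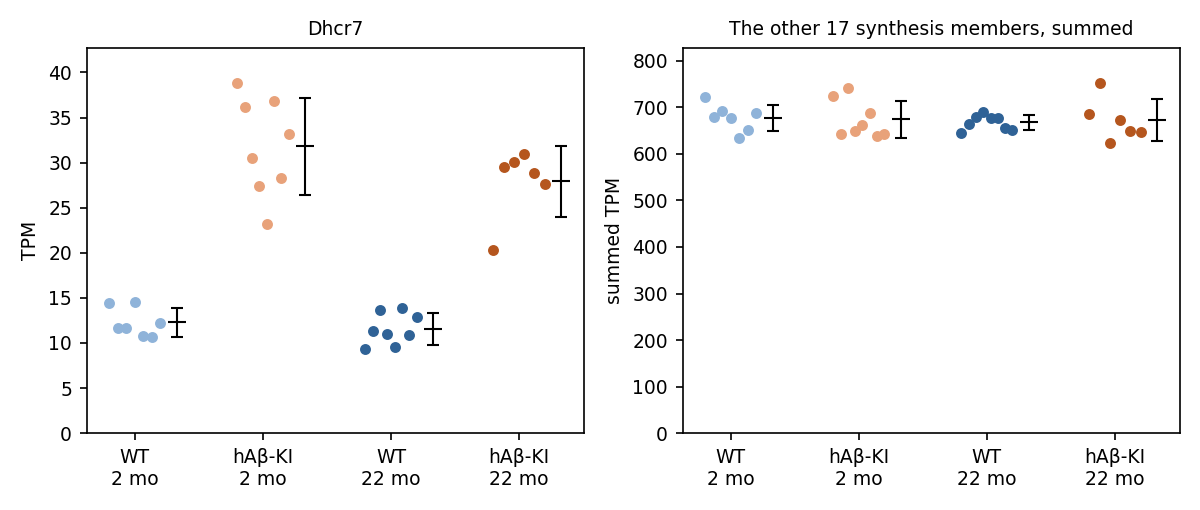
Dhcr7 TPM (left) and the summed TPM of the other 17 synthesis members (right) in each of 29 mice, by genotype and age in months. Each point is 1 mouse, and the bar beside each group is the mean ± SD. Dhcr7 was 12.3 and 11.6 TPM in young and old WT mice and 31.8 and 27.9 TPM in young and old hAβ-KI mice, while the sums of the others had group means between 668 and 678 TPM.

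The young mice averaged 12.3 ± 1.58 TPM (WT, n = 7) against 31.8 ± 5.39 TPM (hAβ-KI, n = 8), a ratio of 2.59. The old mice averaged 11.6 ± 1.75 TPM (WT, n = 8) against 27.9 ± 3.91 TPM (hAβ-KI, n = 6), a ratio of 2.41. On the log2(TPM + 1) scale, which slightly understates a change, the difference was 1.30 (SE 0.105, 95% interval 1.08 to 1.51, adjusted p = 7.13e-09 by limma) at 2 months. It was 1.201 (SE 0.110, 95% interval 0.98 to 1.42, adjusted p = 1.25e-07 by limma) at 22 months, and 1.25 over both ages (adjusted p = 4.70e-12 by limma). The share of all tested genes that passed was 0.0386% at 2 months, 0.495% at 22 months and 0.874% over both ages. Dhcr7 had the smallest p of the 15554 genes in each of these 3 comparisons and ranked 8th, 11th and 7th by the size of its difference. The call held in all 10 other analyses at each single age, in all 9 over both ages, and with any of the 29 mice left out.

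A change of the Dhcr7 difference with age was not detectable. The interaction of genotype and age was -0.10 on the log2 scale (95% interval -0.41 to 0.22, adjusted p = 0.934 by limma). Between 2 and 22 months, Dhcr7 differed by -0.08 in WT mice (95% interval -0.30 to 0.13) and by -0.18 in hAβ-KI mice (95% interval -0.40 to 0.05), and neither difference passed the threshold. Females and males differed by 0.03 (95% interval -0.14 to 0.19). Of the 31 members, 0 passed for the interaction by limma, with 1 at an unadjusted p under 0.05, and 0.00643% of all tested genes passed. That member was Ebp, the sterol isomerase of the late pathway, whose genotype difference was -0.19 at 2 months and 0.15 at 22 months (interaction 0.34, adjusted p = 0.688 by limma). For sex, 0 of 31 members passed by limma, with 1 at an unadjusted p under 0.05, against 0.0964% of all tested genes. The other analyses of these 2 comparisons, where they could be run, also called 0 members.

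No other enzyme of synthesis passed for genotype, and the 95% interval of each lay below that of Dhcr7 at both ages. Summed over the 17 other enzymes, young WT mice had 678 ± 28.2 TPM and young hAβ-KI mice 674 ± 40.3 TPM, and the old mice had 668 ± 15.7 and 672 ± 45.2 TPM. Among the 8 enzymes after lanosterol, Dhcr7 made up 5.42% ± 0.43 of the summed TPM of young WT mice against 13.2% ± 1.70 in young hAβ-KI mice. Its share among old mice was 5.43% ± 0.85 (WT) against 12.02% ± 1.76 (hAβ-KI). At 2 months the genotype differences of the other 17 enzymes ran from -0.19 to 0.13 on the log2 scale, with a median of -0.01, beside a median of -0.03 over all genes. At 22 months they ran from -0.34 to 0.15, with a median of -0.02, beside -0.01 over all genes. All 17 of their 95% intervals lay between -0.39 and 0.45 at 2 months and between -0.56 and 0.35 at 22 months, below the lower bounds of Dhcr7, 1.08 and 0.98.

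**Figure D2:**
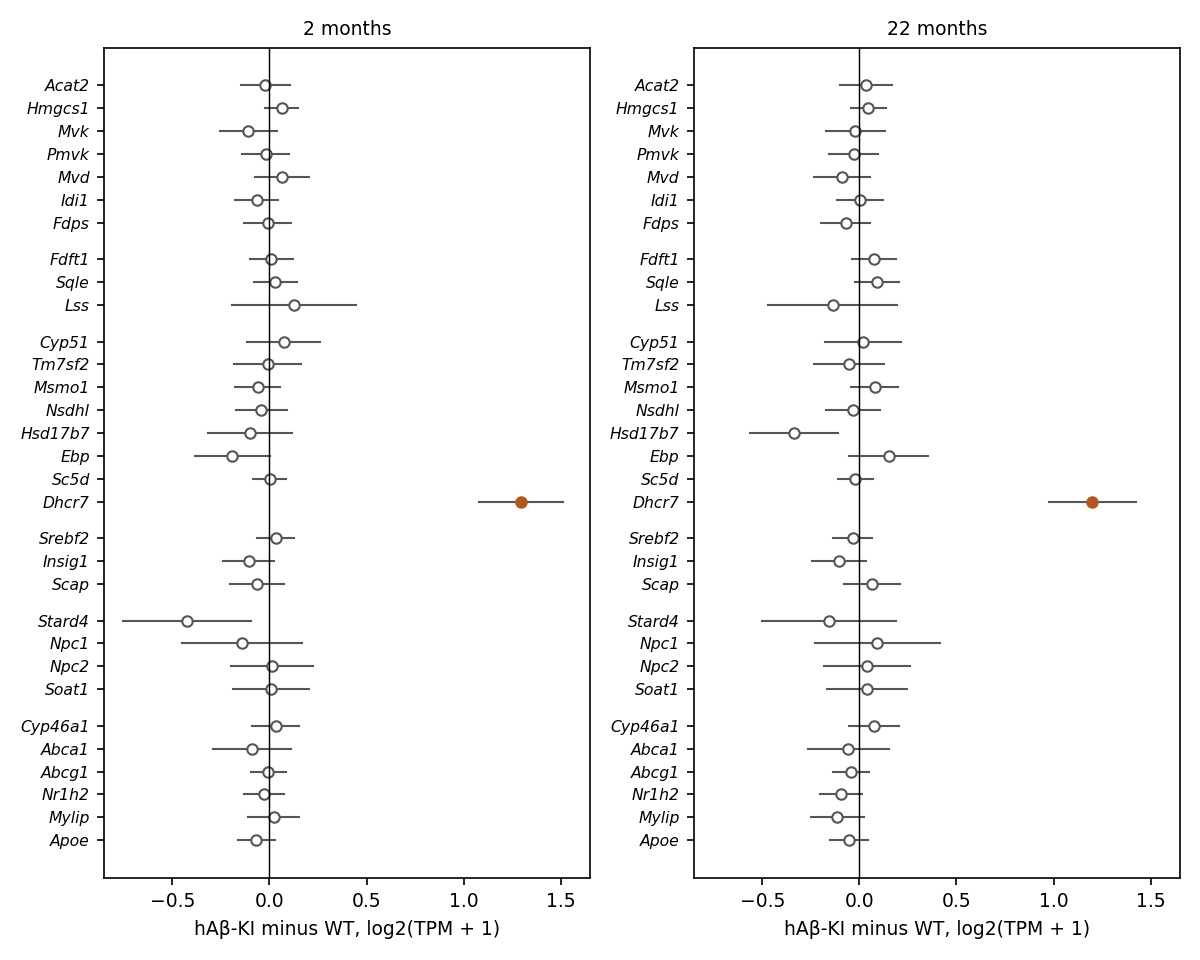
Difference between hAβ-KI and WT mice in log2(TPM + 1) for the 31 members at 2 months (left) and 22 months (right), ordered by role, with 95% intervals. Filled points passed the threshold. Dhcr7, at 1.30 and 1.201, is the filled point of each panel, and the 95% intervals of the other 30 members stay between -0.76 and 0.45.

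Of the 7 members of the mevalonate arm, which lead to farnesyl diphosphate, 0 passed at either age. Hmgcs1 averaged 98.6 ± 4.76 TPM in young WT mice against 103 ± 5.97 TPM in young hAβ-KI mice, and its 95% interval for genotype was -0.02 to 0.15. Fdps, the farnesyl diphosphate synthase, had the highest TPM of the synthesis members and differed by -0.01 and -0.07 at the 2 ages. Other genes hold 40.6% of the read-length stretches of Acat2 (Acat3), 26.96% of those of Fdps, 25.9% of those of Idi1 and 12.04% of those of Hmgcs1, so these levels are uncertain, against 1.84% for Dhcr7. The differences of Acat2, Mvk, Pmvk, Mvd and Idi1 lay between -0.11 and 0.07 at 2 months and between -0.09 and 0.03 at 22 months. Of Fdft1, Sqle and Lss, which make squalene and close it to lanosterol, 0 passed, with differences of 0.01 to 0.13 at 2 months and -0.14 to 0.09 at 22 months. Lss was among the 3 members with the lowest levels, with group means of 3.93 to 4.64 TPM, and had wider intervals than Fdft1 and Sqle.

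After lanosterol, Sc5d makes the substrate of Dhcr7 and averaged 32.4 ± 1.56 TPM in young WT mice against 32.4 ± 1.36 TPM in young hAβ-KI mice. Its genotype difference was 0.00 (95% interval -0.08 to 0.09) at 2 months and -0.02 (95% interval -0.11 to 0.07) at 22 months. Hsd17b7, a sterol ketone reductase, averaged 11.3 ± 1.88 TPM in old WT mice against 8.70 ± 0.81 TPM in old hAβ-KI mice. That difference, -0.34 (95% interval -0.56 to -0.11), had an adjusted p of 0.232 by limma and did not pass. The differences of Cyp51, Tm7sf2, Msmo1 and Nsdhl lay between -0.06 and 0.08 at both ages, and none passed.

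Of the 13 members outside synthesis, 0 passed for genotype at either age or over both ages. Srebf2 averaged 63.1 ± 4.34 TPM in young WT mice against 64.5 ± 3.78 TPM in young hAβ-KI mice, a difference of 0.03 (95% interval -0.06 to 0.13). Insig1 differed by -0.11 at 2 months and -0.10 at 22 months, and over both ages by -0.10 with an unadjusted p of 0.0330 and an adjusted p of 0.464 by limma. Stard4, which carries sterols between membranes, averaged 4.37 ± 0.90 TPM in young WT mice against 3.02 ± 0.78 TPM in young hAβ-KI mice. Its difference of -0.42 (95% interval -0.76 to -0.09) had an adjusted p of 0.645 by limma. Cyp46a1, the neuronal exit enzyme, differed by 0.03 (95% interval -0.09 to 0.15) at 2 months and 0.07 (95% interval -0.05 to 0.20) at 22 months. Apoe differed by -0.07 (95% interval -0.16 to 0.03) and -0.05 (95% interval -0.15 to 0.05) at the 2 ages. The other 8 members (Scap, Npc1, Npc2, Soat1, Abca1, Abcg1, Nr1h2 and Mylip) had differences between -0.14 and 0.09 at both ages, with 95% intervals between -0.45 and 0.41.

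Marker lists of other cell types were compared in the same fit. For genotype at 2 months, 0 of the 59 listed markers passed, beside 0.0386% of all tested genes. At 22 months 1 passed, Rbfox3 of the neuron list, which was lower in hAβ-KI mice, and it was the 1 marker called over both ages. The shares of all tested genes were 0.495% and 0.874% in these 2 comparisons. The summed lists of every cell type overlapped between the genotypes at each age, but the hippocampus list only narrowly among old mice. Its sum ran from 325 to 367 TPM (median 349) in old WT and from 254 to 329 TPM (median 315) in old hAβ-KI mice. The overlap came from old hAβ-KI replicate 1, at 329 TPM. Of the 5 hippocampus markers, 0 passed at 22 months, with 2 at an unadjusted p under 0.05 by limma. The part of this list in other genotype differences was not tested.

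Genes that lie near Dhcr7 on chromosome 7 were compared for the same question. The reference annotation places 63 other genes within 1 Mb of it, of which 43 were in the table and 18 were tested. Of the 18, 0 passed for genotype at either age by limma, beside 0.0386% and 0.495% of all tested genes. At an unadjusted p under 0.05, 0 were counted at 2 months and 2 at 22 months, beside 1041 and 1584 of the 15554 genes tested. Nadsyn1, the nearest, begins 296 bases from the first base of Dhcr7 on the other strand and averaged 2.69 ± 0.70 TPM in young WT mice against 2.94 ± 0.68 TPM in young hAβ-KI mice. Its genotype difference was 0.10 (95% interval -0.12 to 0.32) at 2 months and -0.01 (95% interval -0.24 to 0.22) at 22 months. Mrgpre and Osbpl5, the other tested genes within 100 kb, differed by 0.02 and 0.11 at 2 months and by 0.07 and -0.11 at 22 months. The largest neighbour difference was that of Cdkn1c, a cell cycle inhibitor, 0.92 (95% interval 0.07 to 1.76, adjusted p = 0.433 by limma) at 22 months, beside -0.06 at 2 months.

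**Figure D3:**
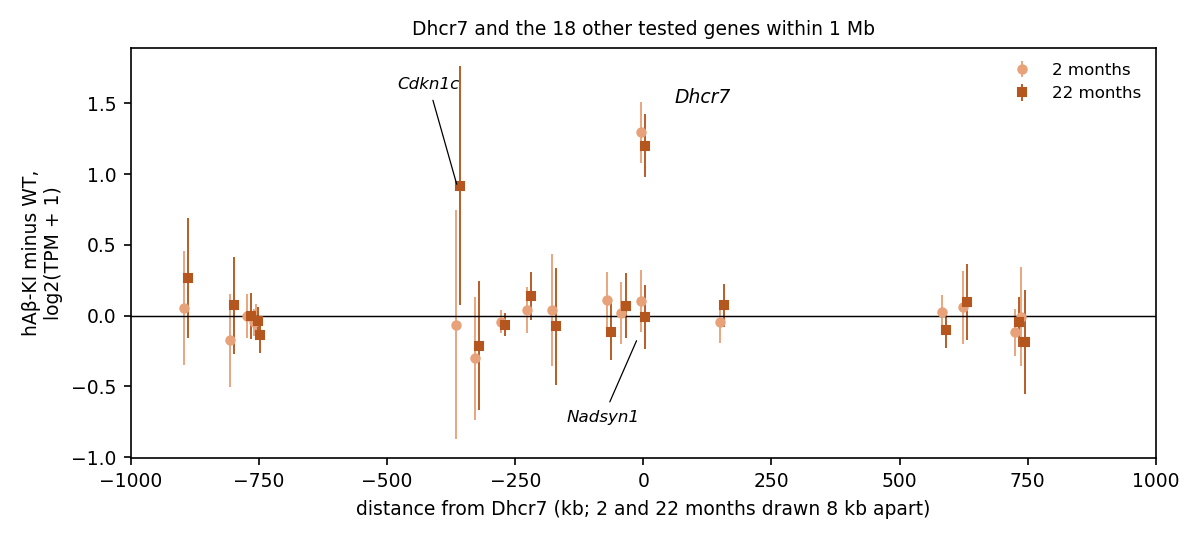
Difference between hAβ-KI and WT mice in log2(TPM + 1), with 95% intervals, against distance from Dhcr7 in kb for Dhcr7 and the 18 other tested genes within 1 Mb. Circles are 2 months and squares 22 months. Dhcr7 is at 1.30 and 1.201, Nadsyn1 beside it is at 0.10 and -0.01, and Cdkn1c has the next largest value, 0.92 at 22 months, with an interval from 0.07 to 1.76.

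Whether Dhcr7 followed the other enzymes from mouse to mouse was asked with deviations from the group means of log2(TPM + 1), which leave the genotype and age differences out. Over 29 mice, Pearson's r with the 17 other synthesis members ran from -0.33 with Lss to 0.37 with Cyp51, with a median of 0.10. By 100000 permutations of mice within groups, 0 of 17 pairs passed at an adjusted p under 0.1, and 0 had an unadjusted p under 0.05 by Pearson's r. For Cyp51, lanosterol demethylase, the permutation p was 0.0696 (adjusted 0.417), and Spearman's rho was 0.28 (permutation p = 0.175, adjusted 0.473). For Acat2, rho was 0.43 (permutation p = 0.0247, adjusted 0.420) and r was 0.34 (permutation p = 0.0838, adjusted 0.417). With the 2 mice farthest in Dhcr7 left out, old hAβ-KI replicate 1 and young hAβ-KI replicate 5, r ran from -0.18 to 0.51. Within single groups, r for Cyp51 was 0.13 (young WT), 0.74 (young hAβ-KI), 0.57 (old WT) and -0.90 (old hAβ-KI), and the last rests on old hAβ-KI replicate 1, without which it was 0.53 over 5 mice. The correlations within single groups were not repeated on rescaled TPM. Of the 68 pairs within groups, 8 had an unadjusted exact permutation p under 0.05, where chance gives about 1 in 20. These were Acat2, Tm7sf2 and Msmo1 in young WT, Hmgcs1, Cyp51 and Nsdhl in young hAβ-KI, and Fdft1 and Nsdhl in old WT mice, with r from 0.72 to 0.86 except for Nsdhl in old WT (-0.73). The 1 pair of Acat2 in young WT mice had an adjusted p under 0.1 (r = 0.79, n = 7, exact permutation p = 0.00298, adjusted 0.0506 over the 17 pairs of the group), and its r was 0.80 without replicate 1.

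The next question was how the members differed between 2 and 22 months. Apoe was higher in old mice of both genotypes. Over both genotypes, Fdft1 and Srebf2 were also higher and Hmgcs1 and Sc5d were lower, with ratios of old to young mean TPM between 0.923 and 1.096, and 26 of the 31 members did not pass. The 3 higher and 2 lower members stand beside 6.2% and 10.6% of all tested genes, 16.8% in all, so the share of members called, 5 of 31, was near that of all genes. The median age difference of the 31 members was -0.01 on the log2 scale, beside -0.02 over all genes. In WT mice 1 of 31 members passed, beside 5% of all genes. In hAβ-KI mice 2 were higher and 1 was lower, beside 3.86% and 5.32% of all genes, or 9.18% in all.

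**Figure D4:**
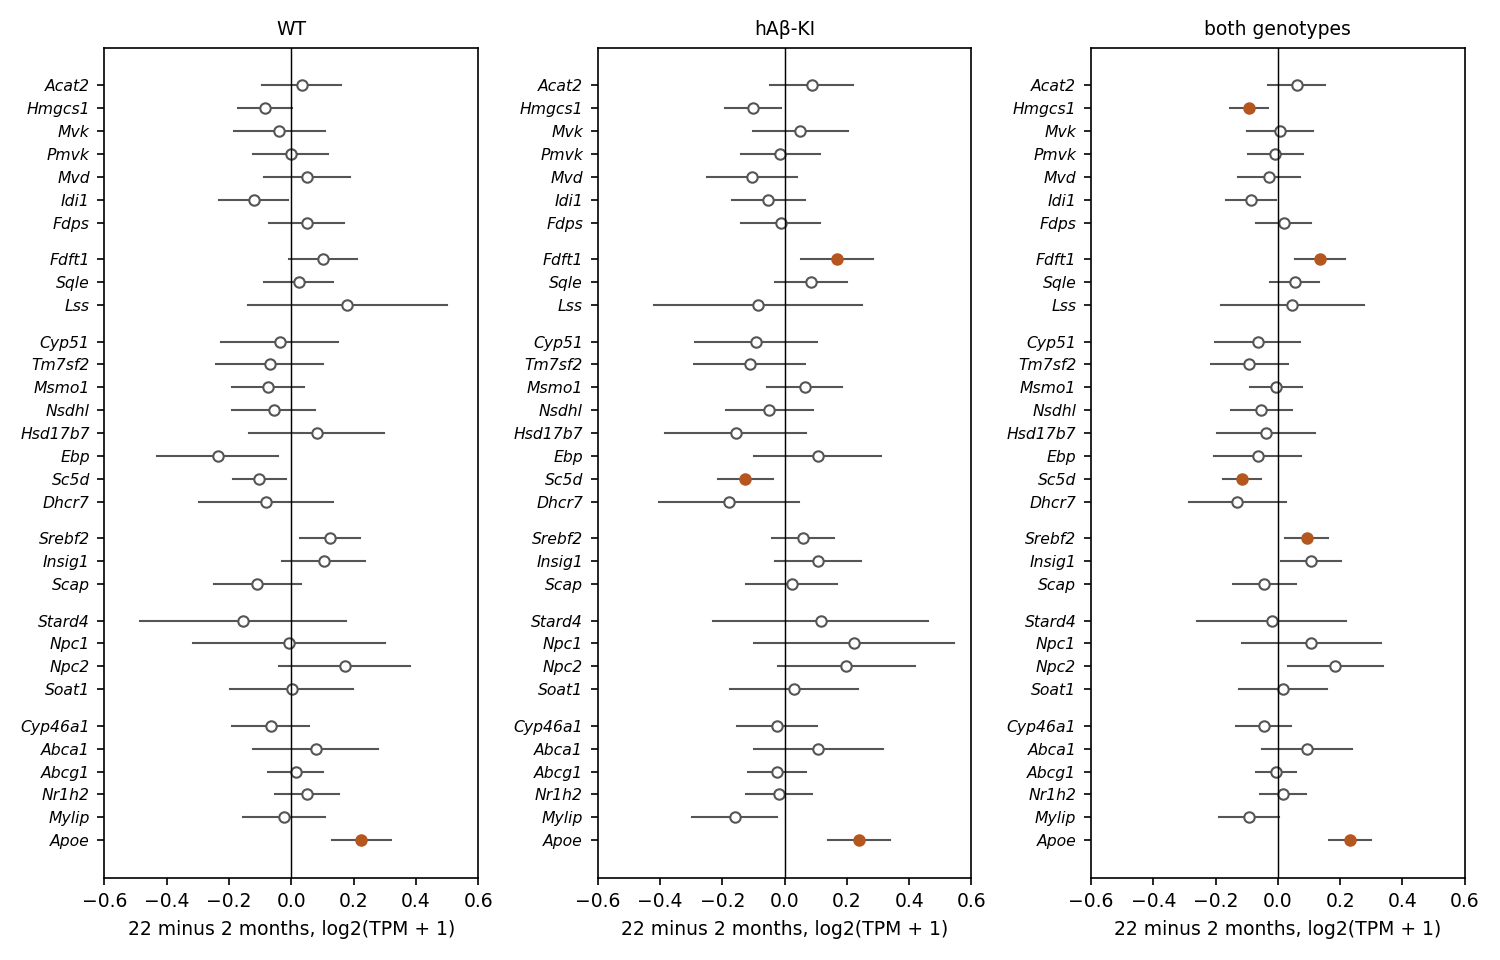
Difference between 22 and 2 months of age in log2(TPM + 1) for the 31 members in WT mice (left), hAβ-KI mice (centre) and over both genotypes (right), ordered by role, with 95% intervals. Filled points passed the threshold. Apoe is filled in all 3 panels, at 0.22, 0.24 and 0.23, Fdft1 and Sc5d in 2, and Srebf2 and Hmgcs1 in the last.

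Apoe (ENSMUSG00000002985, chromosome 7, 19696109 to 19699188, minus strand) encodes the main apolipoprotein of the brain and was by far the most abundant member. In WT mice its TPM ran from 3897 to 4798 at 2 months (median 4030) and from 4501 to 5300 at 22 months (median 4865). In hAβ-KI mice it ran from 3674 to 4178 at 2 months (median 3980) and from 4280 to 5098 at 22 months (median 4655). All 14 old mice were above the mean of the young mice of their genotype, and in hAβ-KI mice the ages did not overlap. The difference was 0.22 in WT (95% interval 0.13 to 0.32, adjusted p = 0.00815 by limma) and 0.24 in hAβ-KI mice (95% interval 0.14 to 0.34, adjusted p = 0.00354 by limma). After quantile normalization Apoe differed by 0.06 (WT) and 0.03 (hAβ-KI) and no longer passed (adjusted p = 0.744 and 0.844 by limma), and it was 0.04 over both genotypes (adjusted p = 0.622). In the other analyses, and with any mouse left out, Apoe passed in each age comparison.

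Markers of the cell types that make apolipoprotein E differed with age too. The summed astrocyte markers ran from 1602 to 1936 TPM in young and from 1817 to 2334 TPM in old mice, and the summed microglia markers from 363 to 440 TPM in young and from 467 to 689 TPM in old mice. Over both genotypes, 6.2% of all tested genes were higher with age and 10.6% lower. In the same comparison, 7 of 8 microglia markers were higher, and 3 of 8 astrocyte markers were higher and 1 was lower. Their part in the Apoe difference was not tested. By calls, oligodendrocyte markers went the other way in most cases, with 5 of 10 lower and 1 higher. Their mean sum was lower with age in WT mice (4806 against 4537 TPM) but not in hAβ-KI mice (4577 against 4760 TPM).

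Fdft1 (ENSMUSG00000021273, chromosome 14, 63145150 to 63179578, minus strand), squalene synthase, is the first enzyme committed to sterols. Its TPM ran from 47.5 to 55.3 (median 52.5) in young and from 49.1 to 60.0 (median 57.7) in old WT mice. In hAβ-KI mice it ran from 47.4 to 59.1 (median 52.1) at the young age and from 51.7 to 65.4 (median 59.9) at the old age. The difference over both genotypes was 0.13 (95% interval 0.06 to 0.21, adjusted p = 0.0213 by limma), and 11 of 14 old mice were above the young mean of their genotype, while the ranges overlapped. Of its transcript stretches as long as a read, 28.2% also occur in other genes, mainly Ctsb, which overlaps it on the other strand in an assay without strand, so its level is uncertain. In hAβ-KI mice alone it was 0.17 (adjusted p = 0.0778 by limma), and this call was lost with no filter on low values, with only the groups compared, and without any one of young replicates 2, 7 and 8 or old replicates 1, 2, 4 and 6 (0.14 to 0.17, adjusted p = 0.124 to 0.157).

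Srebf2 (ENSMUSG00000022463, chromosome 15, 82147181 to 82205379, plus strand) ran from 55.4 to 68.4 TPM (median 62.9) in young and from 63.7 to 72.0 TPM (median 70.4) in old WT mice. The hAβ-KI mice ran from 60.2 to 71.7 TPM (median 64.2) when young and from 61.1 to 75.4 TPM (median 66.7) when old, so the ages overlapped. Over both genotypes it was 0.09 higher with age (95% interval 0.02 to 0.16, adjusted p = 0.0750 by limma), with 13 of 14 old mice above the young mean of their genotype. The call was lost without any one of 9 mice, namely WT replicates 4 and 5 and hAβ-KI replicates 2 and 6 at 2 months and WT replicates 2, 3 and 8 and hAβ-KI replicates 2 and 6 at 22 months (0.08 to 0.09, adjusted p = 0.102 to 0.136). The sterol sensors Insig1 and Scap differed by 0.11 and -0.04 and did not pass.

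Hmgcs1 (ENSMUSG00000093930, chromosome 13, 119690379 to 119708260, plus strand) ran from 90.8 to 105 TPM (median 98.2) in young and from 87.1 to 97.8 TPM (median 94.7) in old WT mice. The hAβ-KI mice ran from 94.98 to 113 TPM (median 102) when young and from 88.1 to 103 TPM (median 95.04) when old. Over both genotypes it was lower by -0.09 (95% interval -0.15 to -0.03, adjusted p = 0.0459 by limma), with 13 of 14 old mice below the young mean of their genotype. This call was lost after quantile normalization (-0.05, adjusted p = 0.246) and once the TPM were rescaled to nuclear protein-coding genes (-0.07, adjusted p = 0.110). Sc5d (ENSMUSG00000032018, chromosome 9, 42251595 to 42264256, minus strand), the desaturase before Dhcr7, ran from 29.7 to 34.9 TPM (median 32.6) in young and from 27.4 to 32.8 TPM (median 30.7) in old WT mice. In hAβ-KI mice it ran from 31.3 to 35.4 TPM (median 32.0) when young and from 28.3 to 30.8 TPM (median 29.7) when old, and there the ages did not overlap. Over both genotypes the difference was -0.11 (95% interval -0.18 to -0.05, adjusted p = 0.0123 by limma), lower in 13 of 14 old mice, and it passed in all 9 other analyses. In hAβ-KI mice alone it was -0.13 (adjusted p = 0.0897 by limma), a call lost in 5 of 10 other analyses (quantile normalization, rescaling, only the groups compared, no trend, and mice sharing a name number correlated). It was also lost without any one of 12 mice (-0.14 to -0.11, adjusted p = 0.1001 to 0.170), which were all hAβ-KI mice but young replicates 5 and 8 and old replicate 1, and old WT replicate 2.

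**Figure D5:**
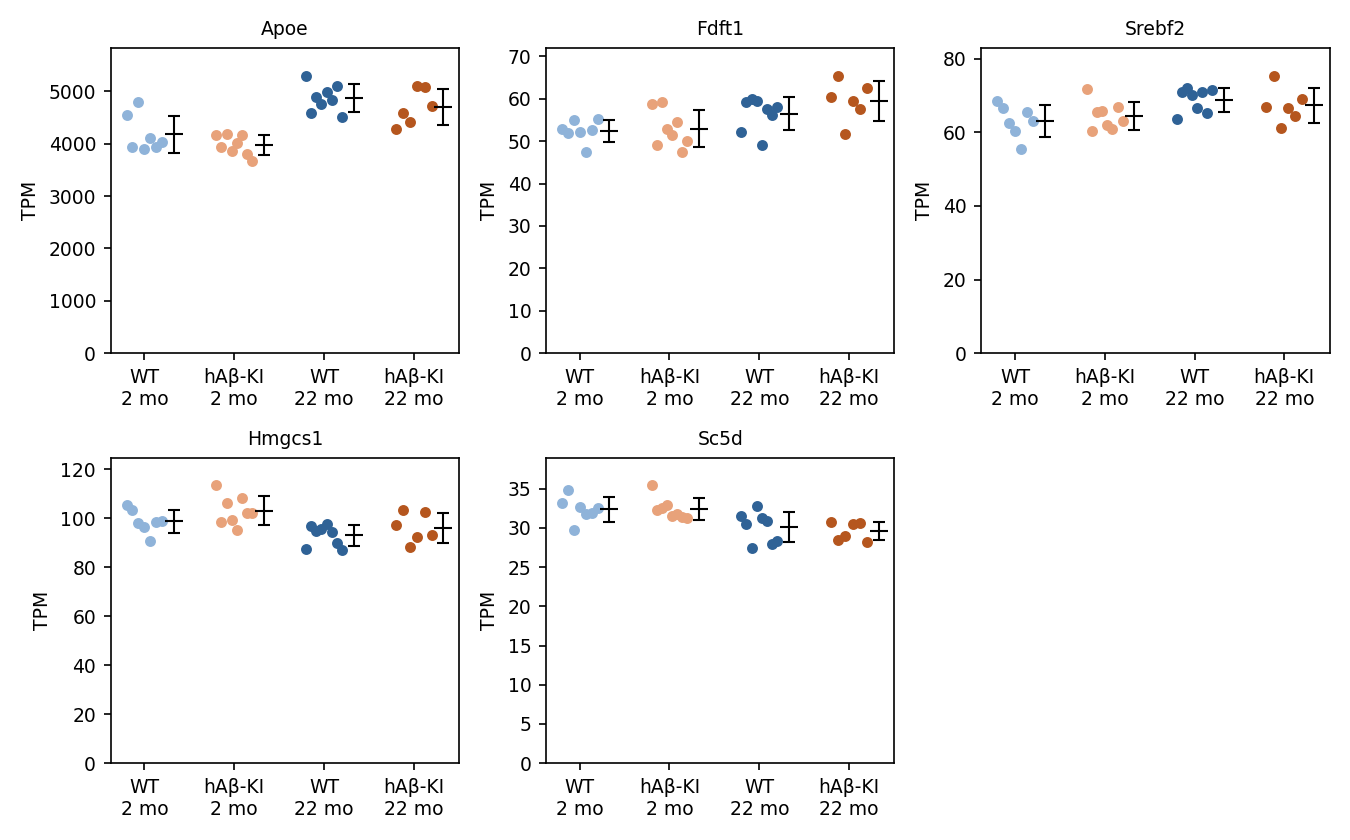
TPM of the 5 members that passed for age over both genotypes, in each of 29 mice by genotype and age in months. Each point is 1 mouse and the bars are the mean ± SD. Apoe rises from group means of 4176 and 3978 to 4870 and 4699 TPM, while the other 4 genes shift by a few TPM, with ranges that overlap between ages except for Sc5d in hAβ-KI mice.

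The 26 members that did not pass for age over both genotypes had differences between -0.13, for Dhcr7, and 0.19, for Npc2, the lysosomal sterol carrier. Npc2 averaged 31.4 ± 4.45 TPM in young WT and 31.7 ± 4.46 TPM in young hAβ-KI mice, and 35.7 ± 6.56 and 36.3 ± 3.14 TPM in the old. Its difference of 0.19 (95% interval 0.03 to 0.34) had an adjusted p of 0.106 by limma, and it passed after quantile normalization, after rescaling and with choroid plexus markers as a covariate (adjusted p = 0.0422, 0.0395 and 0.00552). Insig1 also passed after quantile normalization and rescaling (adjusted p = 0.0603 and 0.0998). All 8 enzymes after lanosterol had a negative difference over both genotypes, between -0.13 and -0.01, with 1 past the threshold. Cyp46a1, with group means of 130 to 140 TPM the most abundant member after Apoe, differed by -0.05 (95% interval -0.13 to 0.04). Abca1 and Abcg1, sterol exporters, differed by 0.09 and -0.01, and Nr1h2, the liver X receptor β that governs them, by 0.02. Abca1 and Stard4 were, with Lss, the members with the lowest levels, at group means of 2.43 to 2.84 and 3.02 to 4.37 TPM.

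Another 50 genes of the same pathway were listed with earlier results known, of which 46 were tested. For genotype, 0 of the 46 passed at 2 months, at 22 months or over both ages by limma, with 2, 1 and 3 at an unadjusted p under 0.05. Of the 15554 genes tested, 0.0386%, 0.495% and 0.874% passed, and 1041, 1584 and 1492 were at an unadjusted p under 0.05. The genotype differences of the 46 ran from -0.68 to 0.16 at 2 months and from -0.25 to 0.42 at 22 months.

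With age, 8 of the 46 were higher and 7 lower over both genotypes, beside 6.2% and 10.6% of all tested genes, or 16.8% in all. Apod, a lipocalin of glia, averaged 303 ± 29.5 against 518 ± 102 TPM in WT mice and 281 ± 19.5 against 599 ± 200 TPM in hAβ-KI mice, and it rose in both (adjusted p = 0.0113 and 0.000708 by limma). Lrp1, an apolipoprotein E receptor, was higher by 0.29 over both genotypes (adjusted p = 0.00616 by limma), Srebf1 by 0.23 (adjusted p = 0.0150), Cyp27a1 by 0.40 (adjusted p = 0.0215) and Ch25h by 0.82 (adjusted p = 0.00225). Ch25h was very low, with group means of 0.97 (WT) and 0.80 TPM (hAβ-KI) in young mice and 1.90 and 2.98 TPM in old mice. The size of its difference is therefore uncertain, and it ran from 0.78 to 1.44 over the other analyses. Lcat, which esterifies cholesterol on lipoproteins, was lower by -0.16 (adjusted p = 0.0225 by limma), in 13 of 14 old mice. The calls of these 6 genes over both genotypes held with any mouse left out.

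Another 7 calls with age did not hold with every mouse left out. Abca7, a lipid transporter, was higher by 0.23 (adjusted p = 0.0531 by limma) and not past the threshold without old hAβ-KI replicate 1 (0.20, adjusted p = 0.104). Acat1, Erlin1, Cyp7b1, Osbpl5, Stard3 and Scarb1 were lower by -0.10 to -0.22 (adjusted p = 0.0663 to 0.0915 by limma). Each lost its call without any one of several mice, 6 for Acat1, Erlin1 and Cyp7b1, 15 for Scarb1, 16 for Osbpl5 and 18 for Stard3, with adjusted p between 0.1001 and 0.173. Scarb1, Osbpl5 and Stard3 also lost their calls when mice sharing a name number were taken as correlated (adjusted p = 0.107, 0.112 and 0.109) and without the filter (0.124, 0.131 and 0.120). Scarb1 and Stard3 lost them after quantile normalization (0.166 and 0.234), as did Acat1 (-0.06, adjusted p = 0.242), and after rescaling (0.149 and 0.127), as did Osbpl5 (0.101) and Cyp7b1 (0.104). Stard3 without the trend (0.103), and Erlin1 (0.1015) and Cyp7b1 (0.103) without the filter, were not past the threshold either. In WT mice alone 3 of the 46 were higher, Apod and Srebf1 among them, and 0 lower, beside 1.93% and 3.07% of all genes. The call of Srebf1 (0.31, adjusted p = 0.0562 by limma) was lost without any one of 5 mice (adjusted p = 0.106 to 0.124) and with only the groups compared (adjusted p = 0.122). In hAβ-KI mice alone 4 were higher, Apod, Lrp1 and Ch25h among them, and 2 lower, Lcat and Osbpl5, beside 3.86% and 5.32% of all genes. The calls of Lcat and Osbpl5 were lost without any one of 6 and 7 mice, and with only the groups compared those of Lrp1, Lcat and Osbpl5 were lost (adjusted p = 0.104, 0.131 and 0.115). The call of Osbpl5 was also lost without the filter (adjusted p = 0.119) and with name numbers correlated (0.1008). Whether a gene changed with age differently in the 2 genotypes was tested by the interaction. There 0 of the 46 passed by limma, with 3 at an unadjusted p under 0.05, beside 1 and 1067 of the 15554 genes tested.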

How the data were processed

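RNA from the hippocampus of 29 mice was copied in full length without strand by Smart-seq2, made into libraries with Nextera and read from both ends (43 bases each). Per the labels and the methods, the authors used STAR 2.5.1b (GRCm38, mm10) and RSEM 1.2.22 with Gencode vM8, and deposited TPM of protein-coding and long non-coding genes. These values do not hold the depth. Groups came from the sample labels, and all mice were kept.

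The tested scale was log2(TPM + 1), with limma 3.58.1 in R 4.3.3 (lmFit, eBayes with a trend). Genes at 1 TPM or more in 2 or more mice entered, 15554 in number, in 1 model of the 4 groups. A gene passed at a Benjamini-Hochberg FDR under 0.1, over all genes tested, with p under 0.05. Sex was added as a term to test it. Nothing says whether same-group mice shared a litter. Intervals are 95% and not adjusted. The model was tested on simulated data with shifted genes. Correlations used 100000 two-sided permutations within groups, or all permutations inside a single group. Positions are from GENCODE M21 on GRCm38, the build of the files with a later annotation. Shared reads are given as the share of a gene's 43-base transcript stretches that other genes hold.

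Alternatives were another pseudocount (0.1), no filter or a filter on the mean, quantile normalization, a rescaling to nuclear protein-coding genes, a fit of the compared groups alone, sex as a term, no eBayes trend, a correlation between mice that share a name number, and each mouse left out. A choroid plexus covariate, and 2 correlations without 1 mouse, were chosen after seeing the data. All 31 members were counted; those past the threshold and Dhcr7 were given by group, and the 3 highest and 3 lowest levels were named. Other pathway genes were named where past the threshold, except a few counted genes that are not reported here by name; Cdkn1c was named after its values were seen. Members and lists were chosen with earlier results of these data known. Tables were made in Python 3.11.15 (pandas 2.3.3, numpy 2.4.6, scipy 1.17.1).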

Additional observations from a re-analysis of the deposited data

Results flagged for a closer look

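In 11 of the 124 sets of a member in a group, 1 mouse stood apart from the others by Dixon's criterion on log2(TPM + 1). Chance gives about 1 in 20.

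Dhcr7 in old hAβ-KI mice was 20.3 TPM in replicate 1, below the 27.7 to 30.99 TPM of the other 5 and still above every WT mouse. The same mouse had the highest Cyp51 of its group, 28.6 TPM against 23.1 to 24.7 TPM. Old hAβ-KI replicate 2 had 188 TPM of Cyp46a1 against 124 to 134 TPM in the others, and 59.4 TPM of Pmvk against 44.4 to 47.3 TPM. It also had the lowest summed oligodendrocyte markers of all 29 mice, 2545 TPM, and the part of this in both values was not tested. In young hAβ-KI mice, Msmo1 was 92.5 TPM in replicate 3 against 73.3 to 81.2 TPM, and Npc1 was 10.4 TPM in replicate 6 against 15.7 to 20.1 TPM. In young hAβ-KI replicate 1, Sc5d was 35.4 TPM against 31.3 to 33.0 TPM and Abca1 was 3.47 TPM against 2.03 to 2.60 TPM. In young WT mice, Acat2 was 46.1 TPM in replicate 1 against 34.6 to 38.3 TPM. Young WT replicate 5 was low in both Fdft1, at 47.5 TPM against 52.0 to 55.3 TPM, and Insig1, at 30.5 TPM against 34.2 to 36.4 TPM. These values were not rescaled to the sum of TPM per mouse. That sum was among the highest of all mice in young WT replicate 1 (816940) and young hAβ-KI replicates 3 (799756) and 1 (779514). Young WT replicate 5 had the lowest sum of its group (740064). The part of these sums in the flagged values was not tested.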

How the results depend on the processing

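The count of members called in 8 comparisons, and of Dhcr7 correlation pairs at an adjusted p under 0.05, were repeated. They kept within 1.5 times their values in 307 of 314 repeats. The interaction and sex, with 0 members called in the main analysis, are among the 8, as are the genotype comparisons, where Dhcr7 alone was called. A count also stays the same when 1 member takes the place of another. For age over both genotypes, quantile normalization dropped Apoe and Hmgcs1 and added Insig1 and Npc2. At an adjusted p under 0.1, young WT mice alone gave 1 pair. Of 1576 repeats over 41 results for single genes, 148 lost a call, 19 gained one and 0 were reversed. In WT mice, 2 members passed for age after rescaling to nuclear protein-coding genes (Apoe and Srebf2) and with the choroid plexus covariate (Apoe and Npc2), in place of 1. Quantile normalization also gave 1, but Srebf2 (0.18, adjusted p = 0.0258 by limma) in place of Apoe. In hAβ-KI mice, 1 member passed for age with only the groups compared, in place of 3, and 1 to 3 with a mouse left out. Rescaling moved the split of all genes called: for age over both genotypes from 965 of 2619 higher to 1252 of 2529, for age in WT from 300 of 777 to 408 of 712, and for genotype over both ages from 20 of 136 to 32 of 92. Quantile normalization gave 377 of 601 higher for age in WT and 32 of 100 for genotype over both ages. Genotype at 22 months gave 77 genes, 23 of them higher, but 29 of 70 after rescaling, and it gave 40 genes with only the groups compared, 48 without the trend and 49 with name numbers correlated. Genotype over both ages gave 83 genes without the filter. The cause was not tested. No paired analysis was possible because replicate numbers follow accession order only; mice sharing a name number, taken as correlated, changed no count of members called beyond 1.5 times, though it ended the calls of Sc5d in hAβ-KI mice and of Scarb1, Osbpl5 and Stard3. TPM without counts limit what low members such as Abca1, Stard4 and Lss, and low pathway genes such as Ch25h, can show.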
